A study of Microhyla fissipes with 9 samples.

Results

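The 100 most abundant unigenes of Microhyla fissipes tadpoles were the 100 with the highest mean FPKM over 9 RNA sequencing libraries, out of 426250 unigenes in the deposited table. A unigene is a sequence put together from the reads without a genome, standing for a transcript or a group of similar transcripts. FPKM counts fragments for the length of the unigene and the mapped fragments of the library, so it can be compared between unigenes of different length. Measured levels chose these 100 unigenes, so their high level is a description and not a finding. What was left to examine is how the levels, the ranks and the share of the summed FPKM varied between doses and libraries.

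The tadpoles, of a frog that lives on farmland, were at Gosner stage 30 and had spent 10 days in water without (control) or with a glyphosate-based herbicide (GBH), at 60 or 90 mg/L. The study kept 20 tadpoles per container in 1000 mL of water, with 5 containers at each dose, and its 120 mg/L dose was not analysed here. For controls and for each exposure, 3 libraries were made from poly-A RNA of whole tissue. The labels name no strain, sex or genotype, and do not tell how many tadpoles or which container a library came from. The p-values below rest on the spread among the libraries, part of which may be technical. No unigene was paired with a gene name here, so unigenes are given by identifier, no role is given to any of them, and the tissue label was not checked against marker genes.

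In poly-A RNA of a whole animal, a few genes usually supply a large part of the transcripts. In vertebrate larvae these commonly include genes of the mitochondrial genome, ribosomal protein genes, elongation factors, and the structural or secreted products of bulky tissues, such as actins and myosins of muscle, keratins of skin, globins of red blood cells and digestive enzymes of the pancreas. Because FPKM is a relative measure, a rise of some abundant transcripts lowers the value of every other one. In libraries of whole tissue, fewer cells of a type and less RNA per cell cannot be told apart.

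Summed FPKM lay between 2739365 and 3005630 per library, and 213161 to 256232 unigenes were above 0. Depth was not in the table. Estimated from the smallest steps of low FPKM values, it ran from 0.768 to 1.09 times that of control replicate 1. Along the first principal component of log2(FPKM + 1), which held 22.7% of the variance, replicate 2 of the controls stood at 304, replicate 2 of 60 mg/L at 261 and replicate 3 of 90 mg/L at 160, against -174 to -62.7 for the other 6 libraries. These 3 libraries, 1 per dose, are called the libraries that lie apart, and results are also given within them and within the other 6. What sets them apart was not tested.

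The highest unigene was Cluster-47276.167347, first in all 9 libraries. It stood at 46064, 44217 and 47187 FPKM in control replicates 1 to 3, at 35980, 55807 and 36050 FPKM at 60 mg/L, and at 44233, 37635 and 57065 FPKM at 90 mg/L. Its share of the summed FPKM averaged 1.57% ± 0.0886 in controls, 1.5% ± 0.334 at 60 mg/L and 1.61% ± 0.287 at 90 mg/L (SD, n = 3 each), and the doses overlapped. Cluster-47276.167040 took rank 2, or rank 3 in the GBH 60 mg/L library of replicate number 2, with shares of 1.01% ± 0.132, 1.10% ± 0.184 and 1.16% ± 0.0750 at the doses in rising order. Cluster-47276.166913 took ranks 2 to 4, with shares of 0.757% ± 0.0540, 0.843% ± 0.121 and 0.814% ± 0.123. The next highest, Cluster-47276.166873 and Cluster-47276.166984, ranked 4 and 5 by the mean of every dose. Both stayed within the 10 highest of each library.

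Of the 10 highest, Cluster-47276.167669 alone had lower FPKM in every exposed than in every control library. It stood at 19068, 17820 and 17407 FPKM in controls, at 14460, 13308 and 13366 FPKM at 60 mg/L and at 15663, 12708 and 15861 FPKM at 90 mg/L. Its rank by dose mean was 6 in controls, 12 at 60 mg/L and 8 at 90 mg/L. The difference of log2(FPKM + 1) was -0.35 (SE 0.10) for exposed against control, and limma's adjusted p over all unigenes tested was 0.277, so it was not called. Ranks 7 to 10 were held by Cluster-47276.167065, Cluster-47276.170246, Cluster-47276.166859 and Cluster-47276.166306. The mean FPKM of these 4 in exposed tadpoles lay between 0.909 and 1.04 times that in controls. Cluster-47276.170246 was the steadiest of the 100 by the ratio of its highest to its lowest library, at 1.24. Cluster-47276.166306 stood at 22609, 19116 and 17882 FPKM in the 3 libraries that lie apart, against 10928 to 12384 FPKM in the other 6.

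**Figure D1:**
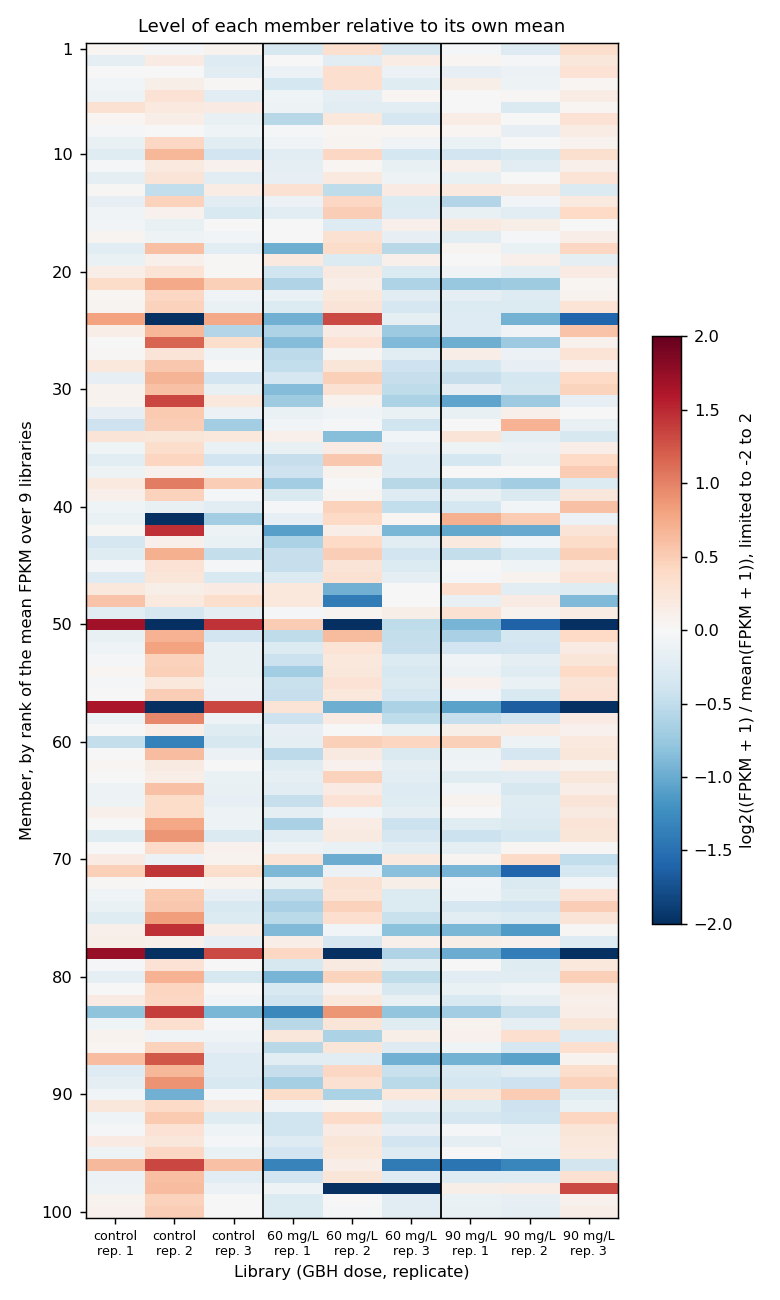
Level of each of the 100 unigenes (down the page, by rank of the mean over 9 libraries) in each library (across, by dose and replicate), as the log2 ratio of FPKM + 1 to the unigene's own mean, limited to -2 and 2. Red marks libraries above the unigene's mean and blue those below it: most rows are pale, control replicate 2 is red in many, and ranks 24, 50, 57, 78 and 98 hold the widest swings.

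The mean over 9 libraries ran from 44915 FPKM down to 4030 FPKM, with a median of 5916 FPKM. Of the 100 unigenes, 18 lay above 10000 FPKM and 72 above 5000 FPKM. In single libraries 61 of them were always among the 100 highest, and 91 always among the 200 highest. Ranked by the mean of 1 dose, 90 of the 100 were among the 100 highest in controls, 93 at 60 mg/L and 91 at 90 mg/L. The highest library exceeded the lowest less than 2-fold in 53 unigenes and over 5-fold in 12, with a median of 1.93-fold. The last ones to enter were Cluster-47276.165845, Cluster-47276.157040 and Cluster-47276.167059, which averaged 4087, 4064 and 4030 FPKM. Just outside stood Cluster-47276.167191, Cluster-47276.167992 and Cluster-47276.173730, at 4025, 4021 and 3943 FPKM.

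Together the 100 unigenes held 28.7%, 33.6% and 27.4% of the summed FPKM in control replicates 1 to 3. They held 24.3%, 29.6% and 24.6% at 60 mg/L, and 25.1%, 25.8% and 29.8% at 90 mg/L. The mean was 26.5% in the 6 exposed libraries and 29.9% in the 3 controls, a difference of -3.37 percentage points, against a pooled SD within doses of 2.95 points. Exposed and control libraries overlapped. Within the 6 libraries that do not lie apart, the share averaged 24.9% in 4 exposed and 28.1% in 2 control libraries, and the groups did not overlap. Within the 3 that lie apart it was 29.6% and 29.8% in the exposed libraries and 33.6% in the control library. Without control replicate 2 the difference over the remaining libraries was -1.52 points. Since the share sums unigenes chosen on their level, it is given without a test.

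**Figure D2:**
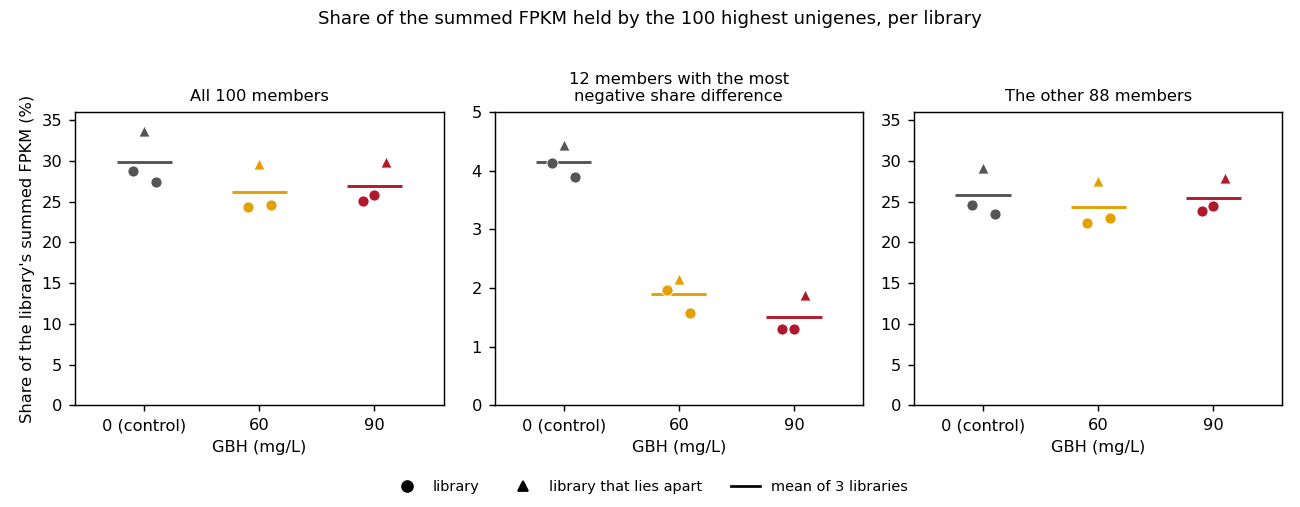
Share of each library's summed FPKM (percent, vertical) by GBH dose for all 100 unigenes, for the 12 with the most negative difference in share, and for the other 88; points are libraries, triangles the 3 that lie apart, lines the means of 3 libraries. The middle panel has its own scale: its controls sit between 3.89% and 4.44%, and its exposed libraries between 1.30% and 2.15%.

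The larger share in controls did not come from the very highest unigenes. The 10 highest held 7.39% ± 0.596 in exposed libraries (SD, n = 6) and 7.33% ± 0.516 in controls (SD, n = 3). Those ranked 11 to 20 held 4.30% in exposed libraries and 4.24% in controls. Ranks 21 to 50 held 6.97% ± 0.850 in exposed libraries and 8.56% ± 0.938 in controls, which made up 47.2% of the net difference. Ranks 51 to 100 held 7.88% ± 0.907 in exposed libraries and 9.77% ± 1.57 in controls, or 56.4% of it. The 900 unigenes ranked next after the 100 held 25.8% in exposed libraries and 29.3% in controls, so that about the same number of points, -3.46, lay beyond the 100.

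Single unigenes contributed unevenly. The share in exposed libraries was below that in controls for 74 of the 100, by 4.34 points in sum, and above it for 26, by 0.970 points in sum. The 12 with the most negative difference, a number settled on after the values were seen, added up to -2.45 points, or 72.8% of the net difference. They held 4.13%, 4.44% and 3.89% in controls, 1.97%, 2.15% and 1.58% at 60 mg/L, and 1.31%, 1.30% and 1.89% at 90 mg/L. That exposed and control libraries do not overlap here follows in part from how the 12 were chosen. Of the 12, Cluster-47276.167320, Cluster-47276.167310, Cluster-47276.167329, Cluster-47276.167679, Cluster-47276.168426, Cluster-47276.167155 and Cluster-47276.166514 had exposed means below the limit of the 100. They entered through their controls, so the part of the 12 in the net difference is also tied to how the 100 were chosen. The other 88 held 24.8% ± 2.34 in exposed libraries (SD, n = 6) and 25.8% ± 3.00 in controls (SD, n = 3), a difference of -0.914 points, and overlapped also within the 6 libraries that do not lie apart. The next in line after the 12 was Cluster-47276.167669, with -0.120 points, just short of the -0.125 points of Cluster-47276.166514.

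**Figure D3:**
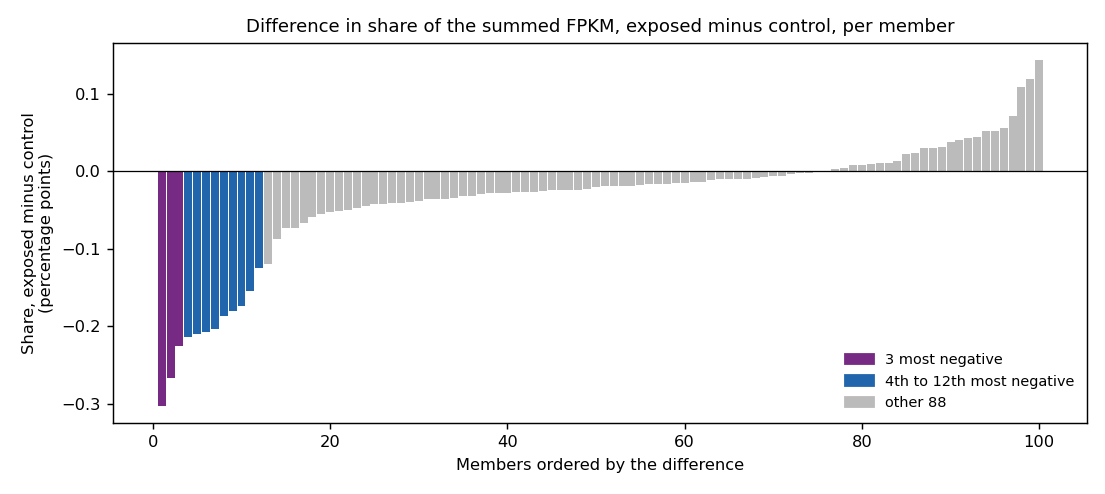
Difference in mean share of the summed FPKM, exposed minus control, in percentage points (vertical), for each of the 100 unigenes ordered from the most negative to the most positive (horizontal). The first 3 bars reach from -0.302 to -0.226 points and the next 9 from -0.214 to -0.125, and 26 bars lie above 0.

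The 3 most negative differences belonged to Cluster-47276.167320, Cluster-47276.167310 and Cluster-47276.167329, of neighbouring identifiers. Cluster-47276.167320 stood at 19207, 61.3 and 16292 FPKM in control replicates 1 to 3, at 8479, 305 and 4175 FPKM at 60 mg/L, and at 3119, 1943 and 95.9 FPKM at 90 mg/L. Cluster-47276.167310 stood at 17600, 631 and 14347 FPKM in controls, at 6845, 2867 and 3644 FPKM at 60 mg/L, and at 2709, 1802 and 548 FPKM at 90 mg/L. In each of the 3 unigenes, control replicates 1 and 3 were the highest libraries, and the libraries that lie apart the lowest of their dose. Over the 9 libraries their log2 values correlated with an r of 0.923 to 0.983 between pairs, as a description.

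What these 3 unigenes showed differed between the library sets. Within the 6 libraries that do not lie apart, exposed means were 0.235 to 0.25 times the control means, and every exposed library lay below both controls. Within the 3 that lie apart the order was the opposite, with exposed means 3.27, 2.70 and 5.74 times the control library for Cluster-47276.167320, Cluster-47276.167310 and Cluster-47276.167329. In all libraries together their summed share was 0.303% ± 0.262 in exposed (SD, n = 6) and 1.10% ± 0.943 in control libraries (SD, n = 3). The difference of -0.795 points is thus no larger than the spread of the controls. In limma their log2 differences for exposed against control were -0.98, -1.18 and -0.74 with SE of 2.03, 1.03 and 1.57, and adjusted p of 0.909, 0.775 and 0.912. The log2 differences of Cluster-47276.167320 and Cluster-47276.167329 turned positive without control replicate 1 (0.43 and 0.53) or without control replicate 3 (0.32 and 0.31).

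The differences ranked 4 to 12 from the most negative added up to -1.66 points, 49.2% of the net difference, and were of another kind. These 9 unigenes were Cluster-47276.167453, Cluster-47276.166618, Cluster-47276.166610, Cluster-47276.167679, Cluster-47276.166812, Cluster-47276.168426, Cluster-47276.167838, Cluster-47276.167155 and Cluster-47276.166514. All 9 were highest in control replicate 2. Their exposed means were 0.304 to 0.530 times the control means over all libraries, 0.251 to 0.531 times within the 6 libraries that do not lie apart, and 0.318 to 0.628 times within the 3 that do. The 9 were picked for low exposed shares in these same libraries, so the low ratios follow in part from that choice. The ratios within the library sets are thus no separate check. Exposed means of Cluster-47276.167679, Cluster-47276.168426, Cluster-47276.167155 and Cluster-47276.166514 lay below the limit for being chosen, so these entered through their controls. By the control mean the 9 ranked between 14 and 49, and by the exposed mean between 28 and 160. In 8 of the 9 the mean at 90 mg/L was below that at 60 mg/L, the exception being Cluster-47276.166812. The 9 ran alike over the libraries, with r of 0.816 to 0.990 between pairs, so the 8 are not separate observations. Their log2 differences of 90 against 60 mg/L, from -0.336 to 0.034, were each smaller than their SE, which ran from 0.252 to 0.525. Of all the chosen unigenes, 62 had a higher mean share at 90 than at 60 mg/L.

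Cluster-47276.166618, the most abundant of the 9, stood at 11830, 15564 and 12864 FPKM in controls, at 6078, 10100 and 5997 FPKM at 60 mg/L, and at 5435, 5600 and 9438 FPKM at 90 mg/L. Every exposed library lay below every control. Its share averaged 0.259% ± 0.0705 at 60 mg/L and 0.237% ± 0.0717 at 90 mg/L, against 0.458% ± 0.0558 in controls (SD, n = 3 each). The log2 difference for exposed against control was -0.95 (SE 0.23), with limma's adjusted p at 0.222.

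Cluster-47276.168426 had the largest log2 difference of the 9. It stood at 6460, 10465 and 6207 FPKM in controls, at 1644, 4520 and 1547 FPKM at 60 mg/L, and at 1504, 1666 and 3196 FPKM at 90 mg/L, without overlap of exposed and control libraries. The log2 difference for exposed against control was -1.82 (SE 0.39, adjusted p = 0.161 in limma). At 60 mg/L it was -1.73 and at 90 mg/L -1.90, with adjusted p of 0.378 and 0.238 in limma. By dose mean it ranked 151 at 60 mg/L and 171 at 90 mg/L, against 42 in controls.

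Cluster-47276.167838 came nearest to the threshold, with an adjusted p of 0.149 in limma for exposed against control (log2 difference -1.03, SE 0.22). It stood at 7595, 13418 and 9299 FPKM in controls, at 4078, 6647 and 4527 FPKM at 60 mg/L, and at 4451, 4110 and 5457 FPKM at 90 mg/L. Cluster-47276.167679 stood at 7187, 13876 and 6596 FPKM in controls, at 2770, 4760 and 2888 FPKM at 60 mg/L, and at 2702, 1723 and 4070 FPKM at 90 mg/L. In both, the highest exposed library was below the lowest control. Cluster-47276.167155 was likewise without overlap, at 2196 to 4913 FPKM in exposed and 5160 to 13378 FPKM in control libraries.

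In the other 4 of the 9, at least 1 of the exposed libraries that lie apart reached into the control range, in Cluster-47276.166610 that of 60 mg/L alone. Cluster-47276.167453 stood at 8435, 19038 and 10824 FPKM in controls, at 4627, 10323 and 4591 FPKM at 60 mg/L and at 4307, 5138 and 8959 FPKM at 90 mg/L. Within each library set its groups did not overlap. The same held for Cluster-47276.166610 and Cluster-47276.166812, whose control replicate 2 stood at 18413 and 18187 FPKM. Cluster-47276.166514 overlapped also within the 6 other libraries, with 3713 FPKM in GBH 60 mg/L replicate 1 and 3639 FPKM in control replicate 3. Between pairs of the 9 unigenes, r over the 9 libraries was 0.816 to 0.990.

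**Figure D4:**
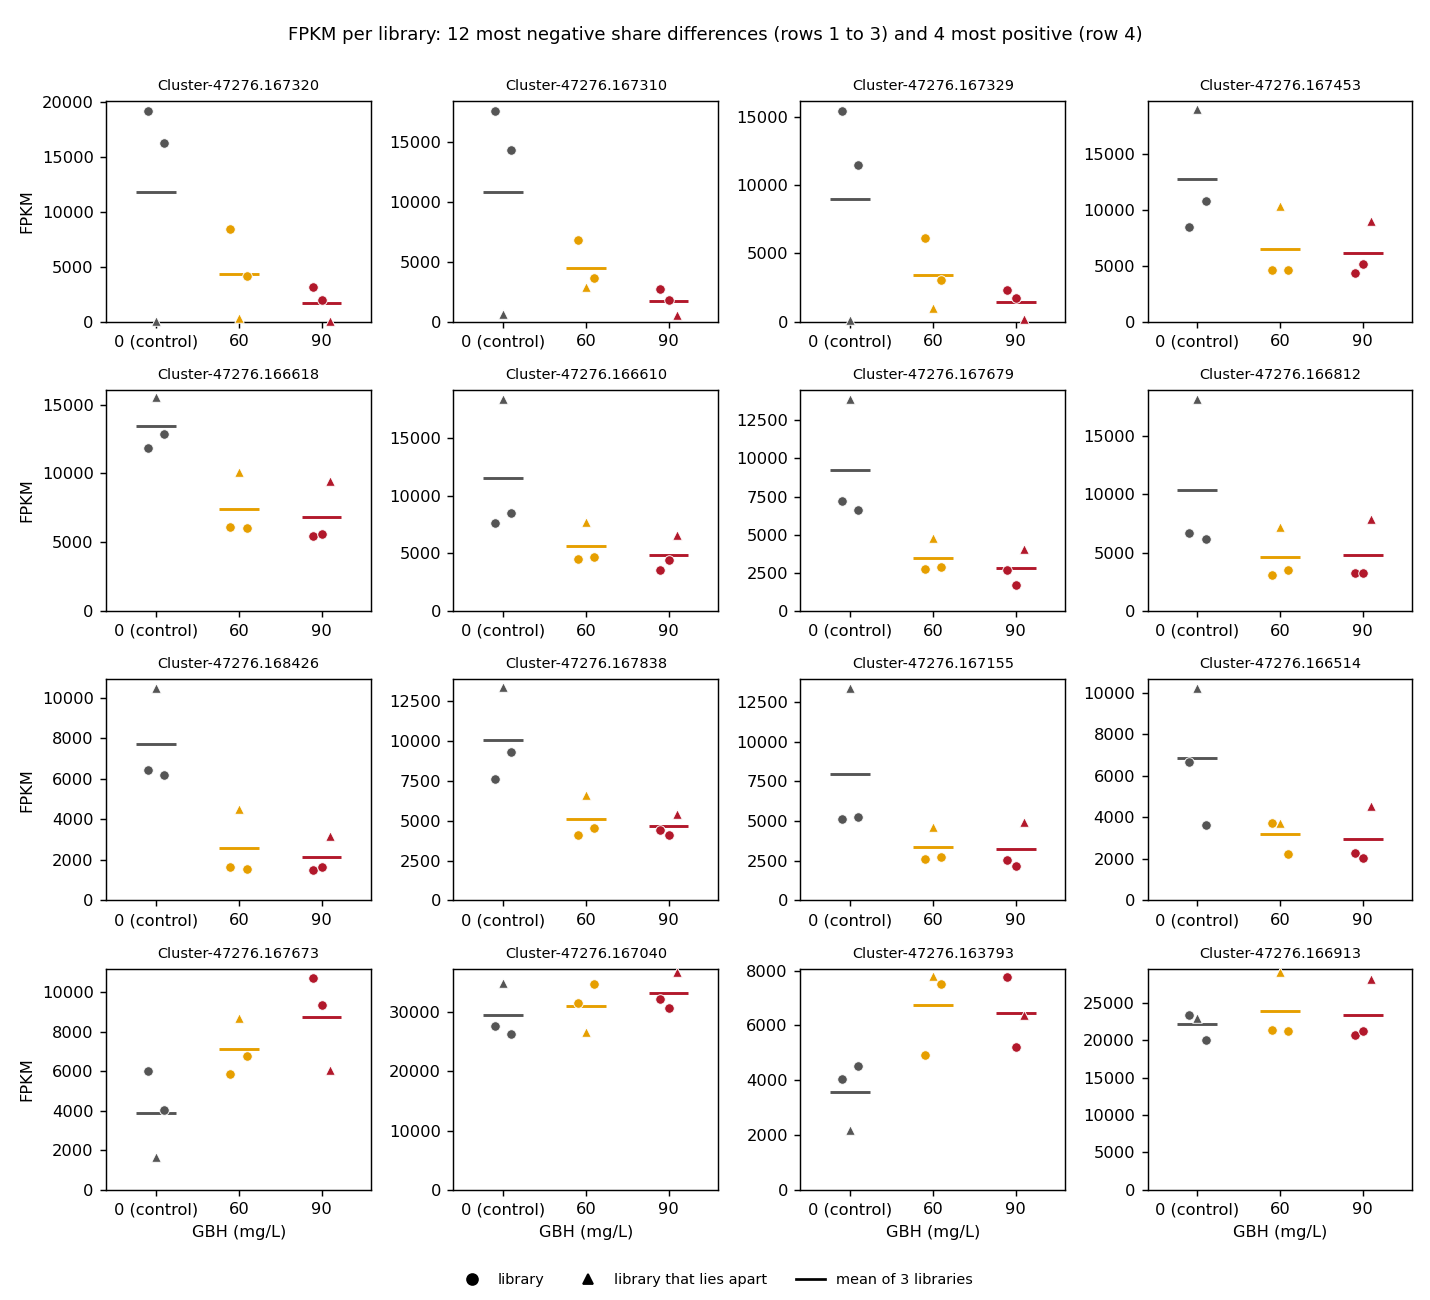
FPKM (vertical, linear, each panel on its own scale) by GBH dose for the 12 unigenes with the most negative difference in share (rows 1 to 3) and the 4 with the most positive (row 4); points are libraries, triangles the 3 that lie apart, lines the means of 3 libraries. The first 3 panels have triangles at the bottom of each dose, the next 9 have them at or near the top.

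The 6 most positive differences in share added up to 0.549 points. Cluster-47276.167673 led with 0.144 points. It stood at 6020, 1644 and 4046 FPKM in controls, at 5870, 8714 and 6781 FPKM at 60 mg/L, and at 10737, 9375 and 6062 FPKM at 90 mg/L. Its lowest exposed library, GBH 60 mg/L replicate 1, lay under its highest control. The exposed mean was 2.03 times the control mean, and the log2 difference 1.17 (SE 0.38, adjusted p = 0.357 in limma). By dose mean it ranked 28 at 60 mg/L and 24 at 90 mg/L, against 122 in controls.

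Cluster-47276.163793 was higher in every exposed library, at 4936 to 7792 FPKM, than in controls, at 2190 to 4506 FPKM. Its exposed mean was 1.85 times the control mean (log2 difference 0.93, SE 0.26, adjusted p = 0.288 in limma), and it ranked 38 by the exposed mean and 132 by the control mean. Cluster-47276.168851 did not overlap either, at 5849, 6294 and 6546 FPKM at 60 mg/L and 7438, 6301 and 6667 FPKM at 90 mg/L, against 5148, 4774 and 5284 FPKM in controls. It had the smallest residual SD of the 100, 0.10 on the log2 scale, and a log2 difference of 0.36 (SE 0.10, adjusted p = 0.276 in limma). The others were Cluster-47276.167040, Cluster-47276.166913 and Cluster-47276.167722, abundant unigenes whose exposed means were 1.07 to 1.09 times the control means, so that a small relative difference gave 0.119, 0.0711 and 0.0514 points. Their log2 differences of 0.12, 0.08 and 0.12 turned to -0.23, -0.27 and -0.24 under median-ratio scaling, and that of Cluster-47276.167040 to -0.075 under quantile normalization. Under median-ratio scaling that of Cluster-47276.168851 shrank to 0.0040, while those of Cluster-47276.167673 and Cluster-47276.163793 stood at 0.82 and 0.57.

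Another 3 unigenes, outside these groups, also swung over 5-fold between libraries, and 2 of them were near absent from some. Cluster-47276.159689 was listed at 0 in control replicate 2, at 15553 and 15133 FPKM in the other controls, at 4586, 22282 and 7854 FPKM at 60 mg/L, and at 7488, 4644 and 2981 FPKM at 90 mg/L. It was the only one of the 100 listed at 0 in any library. Its exposed mean was 0.812 times the control mean, while its log2 difference, which weighs the 0 heavily, was 3.42 (SE 2.76), and -1.22 without control replicate 2. Cluster-47276.165845 stood at 2.07 and 2.5 FPKM in GBH 60 mg/L replicates 2 and 3, and at 3769 to 10171 FPKM in the other 7 libraries, of which GBH 60 mg/L replicate 1 had 3828 FPKM. Cluster-47276.188802 stood at 11674, 8296 and 4891 FPKM in the libraries that lie apart and at 1835 to 3306 FPKM in the other 6. No unigene had more than 50% of its summed FPKM in 1 library.

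In 46 of the remaining 79 unigenes all 3 libraries that lie apart were above the other 6. These 46 held 10.5% ± 1.91 in exposed libraries (SD, n = 6) and 11.4% ± 2.80 in controls (SD, n = 3), a difference of -0.914 points, with exposed means 0.679 to 1.10 times the control means. In 2 unigenes, Cluster-47276.166837 and Cluster-47276.166927, all 3 libraries that lie apart were below the other 6. Cluster-47276.166927 was among the 3 with the largest gain in rank, at 74 by the exposed mean and 137 by the control mean. The other 31, the highest unigene among them, held 10.3% ± 0.463 in exposed libraries and 10.7% ± 0.431 in controls, with exposed means 0.652 to 1.18 times the control means.

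Over all 100 unigenes, the 3 libraries that lie apart were all above the other 6 in 48 and all below in 5. Among all 147577 unigenes tested these shares were 8.04% and 8.05%, and among the 900 next highest 25.1% and 14.8%. Control replicate 2 was the highest library of 60 of the 100 unigenes and the lowest of 7. The median of the 100 was 8531 FPKM in control replicate 2, against 6016 and 5574 FPKM in the other controls. The part of these libraries in the differences between doses was not tested beyond the values given within each set.

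The steadiest unigenes, by the SD of log2(FPKM + 1) within doses, were Cluster-47276.168851, Cluster-47276.170246, Cluster-47276.168667, Cluster-47276.167669 and Cluster-47276.164837, with SDs of 0.10, 0.10, 0.12, 0.12 and 0.12. Of these, Cluster-47276.168667 had 4049, 4397 and 3792 FPKM at 60 mg/L and 3586, 3200 and 3867 FPKM at 90 mg/L, against 4994, 5518 and 4836 FPKM in controls. Its exposed libraries all lay below its controls, and its log2 difference was -0.43 (SE 0.11, adjusted p = 0.245 in limma). The least steady were Cluster-47276.159689, Cluster-47276.167320, Cluster-47276.165845, Cluster-47276.167329 and Cluster-47276.167310, with SDs of 4.70, 3.46, 3.43, 2.67 and 1.74. The median SD was 0.34 in the 100 unigenes, 0.43 in the 900 next highest and 0.76 in all unigenes tested.

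Each unigene was tested for a difference between doses with limma on log2(FPKM + 1), with p-values adjusted over all 147577 unigenes whose mean reached 1 FPKM, all of the 100 included. At an adjusted p under 0.05, none of the 100 was called for exposed (the mean of both doses) against control, for 60 mg/L against control, for 90 mg/L against control or for 90 against 60 mg/L. Of all unigenes tested, 0.297%, 0.205%, 0.247% and 0.044% were called in these 4 comparisons, which over 100 unigenes amounts to less than 1 call. Among the 900 next highest unigenes, 2.44% were called for exposed against control. At an unadjusted p under 0.05 the number of the 100 was 14, 14, 13 and 1 in the same order in limma, against 9.55%, 7.6%, 8.91% and 3.76% of all unigenes tested. The lowest adjusted p in limma was 0.149 for exposed, 0.357 for 60 mg/L and 0.208 for 90 mg/L, each against control, and 1 for 90 against 60 mg/L. Both doses were set against the same 3 controls.

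For exposed against control, where 9.55% of all unigenes tested had an unadjusted p under 0.05 in limma, 11 of the 14 with such a p among the 100 were lower and 3 were higher in exposed tadpoles. Lower ones were the 9 unigenes ranked 4 to 12 by their difference in share, with Cluster-47276.167669 and Cluster-47276.168667. Higher ones were Cluster-47276.167673, Cluster-47276.168851 and Cluster-47276.163793. The 9.55% was not split by direction, so the 11 and 3 have no matching background. Of the 438 unigenes called over the whole table in limma at an adjusted p under 0.05, 318 were lower and 120 higher. With a term for the libraries that lie apart, chosen with their place known, limma called 9 of the 100 for exposed against control, 8 for 60 mg/L and 9 for 90 mg/L against control, and 0 for 90 against 60 mg/L. Of all unigenes tested, this fit called 0.647%, 0.32%, 0.457% and 0.0325% in the same order. All of the 100 so called were lower in exposed tadpoles: 8 of the 9 unigenes above, without Cluster-47276.166514, and Cluster-47276.168667 for exposed and for 90 mg/L. The adjusted p in that limma fit ran from 0.00358 for Cluster-47276.168426 to 0.0337 for Cluster-47276.168667 in exposed against control. Without these 3 libraries, limma called Cluster-47276.168426 alone, for exposed against control (log2 difference -1.99, adjusted p = 0.0492), and 0.601% of all unigenes tested. Of the unigenes called in these fits, Cluster-47276.168426, Cluster-47276.167679, Cluster-47276.167155 and Cluster-47276.168667 had exposed means below the limit of the 100 and entered through their controls. Of the 14, the exposed mean of Cluster-47276.166514 and the control means of Cluster-47276.167673 and Cluster-47276.163793 also lay below that limit. Calls and unadjusted counts among the 100 are thus partly tied to how the 100 were chosen.

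By overlap of libraries, 7 of the 100 unigenes were lower in every exposed than in every control library, and 2 were higher. Among all unigenes tested, 1.39% were lower and 4.58% higher in this way. The 7 were Cluster-47276.167669, Cluster-47276.166618, Cluster-47276.167838, Cluster-47276.167679, Cluster-47276.167155, Cluster-47276.168667 and Cluster-47276.168426, and the 2 were Cluster-47276.168851 and Cluster-47276.163793. Of these, the exposed means of Cluster-47276.167679, Cluster-47276.167155, Cluster-47276.168667 and Cluster-47276.168426, and the control mean of Cluster-47276.163793, lay below the limit of the 100. They entered the 100 through the other group, so the counts among the 100 are partly tied to how the 100 were chosen. The 7 held 1.36% ± 0.201 of the summed FPKM in exposed libraries (SD, n = 6) and 2.44% ± 0.481 in controls (SD, n = 3). That difference follows from picking the 7 for lower values in every exposed library. At 60 mg/L, 10 were lower than every control (2.55% of all tested) and 2 higher (9.24%). At 90 mg/L, 10 were lower (3.1%) and 4 higher (11.2%). The 10 at each dose include the 7 above, so these counts are tied to the choice of the 100 in the same way. Between 90 and 60 mg/L, Cluster-47276.167310 was lower at 90 mg/L (2.98% of all tested), and Cluster-47276.166109 and Cluster-47276.165845 were higher (3.02%). The 90 mg/L mean of Cluster-47276.167310 and the 60 mg/L mean of Cluster-47276.165845 lay below the limit of the 100. Both entered through other groups, so their differences are partly tied to that choice. Taking each library set on its own, 27 of the 100 were lower in exposed libraries within both sets (2.71% of all tested) and 3 higher (9.73%). Among the 27 are Cluster-47276.167679, Cluster-47276.167155, Cluster-47276.168667, Cluster-47276.168426, Cluster-47276.169350, Cluster-47276.164891, Cluster-47276.157040 and Cluster-47276.167059, which entered through their controls. This count too is therefore partly tied to how the 100 were chosen. Within the 6 other libraries alone 34 were lower and 11 higher, and within the 3 that lie apart 70 and 18. For single sets the shares of all unigenes tested were not worked out, so these counts are not a result about the 100. The only control among the 3 libraries that lie apart was control replicate 2, the highest library of 60 of the 100, so the 27 lean on that library.

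The log2 difference for exposed against control had a median of -0.18 in the 100 unigenes, and 79 of them were below 0. In the 900 next highest the median was -0.01, with 50.6% below 0 and 22 called in limma at an adjusted p under 0.05. Over all unigenes tested the median was 0.23, with 33.5% below 0. A shift of that size in the whole table depends on the scaling. Under median-ratio scaling, with which the median over all tested came to 0.00, the 100 had a median of -0.53 with 95 below 0. That scaling divided controls by 0.792 to 0.949 and exposed libraries by 1.08 to 1.16. It thus lowered exposed against control values throughout the table, so the -0.53 and the 95 are relative to the bulk of the table. Under quantile normalization the direction turned, with a median of 0.09 and 30 below 0. This scaling gives all libraries the same distribution, so it largely takes out a common shift of the highest unigenes beforehand. It therefore cannot show whether the 100 as a group were lower. Without control replicate 2 the median of the 100 was -0.01, with 52 below 0. That fit kept the exposed libraries that lie apart but no control that does. Without all 3 libraries that lie apart the median was -0.16, with 79 below 0.

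**Figure D5:**
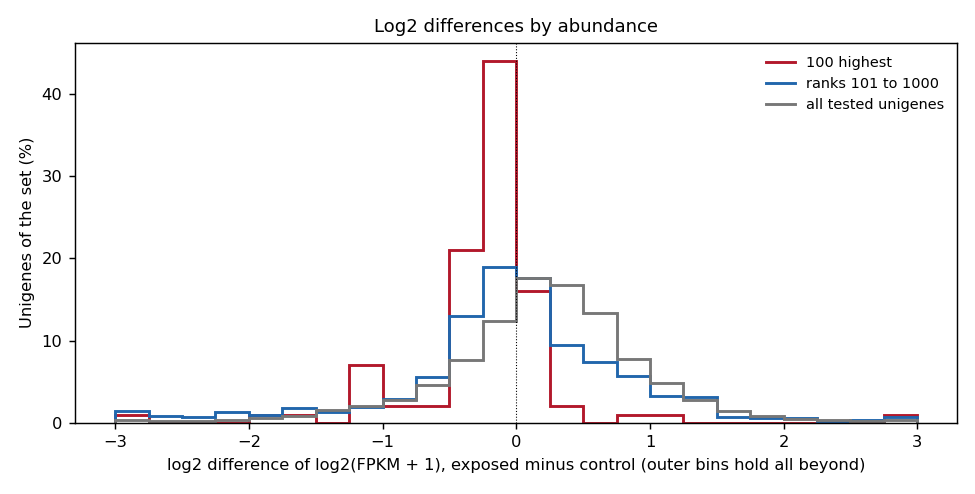
Percent of unigenes (vertical) by the difference of log2(FPKM + 1), exposed minus control (horizontal, outer bins hold all values beyond), for the 100 highest unigenes, those ranked after them up to 1000, and all unigenes tested. The 100 peak just below 0 with a small group near -1, while all tested unigenes centre above 0, with medians of -0.18 and 0.23.

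By the mean of each dose, the largest gains in rank were those of Cluster-47276.163793 and Cluster-47276.167673, followed by Cluster-47276.166927. The largest losses were those of Cluster-47276.167329, at 157 by the exposed mean and 34 by the control mean, of Cluster-47276.168426, at 160 and 42, and of Cluster-47276.167320, at 134 and 19. The control means of the gaining unigenes named, and the exposed means of the losing ones, lay below the limit for being chosen. Each was chosen through its other group, so the size of these gains and losses is partly tied to that choice. By the control mean alone, Cluster-47276.167320 would stand among the 20 highest unigenes of the tadpoles, and by the mean at 90 mg/L it stood at rank 196. In the control library that lies apart, it ranked 3627.

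Identifiers gave the only other property at hand. All 100 unigenes carried cluster number 47276, which is the number of 78.7% of all unigenes in the table. Within it their running numbers lay between 157040 and 188802, a range that holds 9.47% of that cluster. Of the 900 next highest unigenes 83.7% lay in that range, against 14.5% of all unigenes tested. Where unigenes are near-identical copies, the authors' counting could have divided reads between them, so the levels of single unigenes are uncertain to that extent. Whether any of the 100 are such copies was not tested.

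Some unigenes ran closely alike over the 9 libraries. The pairs with the highest Pearson r of log2(FPKM + 1) were Cluster-47276.167415 with Cluster-47276.167861 (0.996), Cluster-47276.166533 with Cluster-47276.167137 (0.995), Cluster-47276.169350 with Cluster-47276.164891 (0.994), Cluster-47276.157040 with Cluster-47276.167059 (0.992) and Cluster-47276.167861 with Cluster-47276.166983 (0.992). These points share libraries, depth and the 3 libraries that lie apart, and the values are a description over 9 libraries. Of these pairs, the one of Cluster-47276.157040 and Cluster-47276.167059 also lay next to each other in level, at ranks 99 and 100. The most opposed pair was Cluster-47276.167722 with Cluster-47276.165451 (-0.985).

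Among the 1000 highest unigenes, 23 followed Cluster-47276.167320 with an r above 0.95 over the 9 libraries, and 1 of these was among the 100. Together with it, the 23 held 4.44%, 0.0395% and 3.98% of the summed FPKM in controls, 2.13%, 0.189% and 1.07% at 60 mg/L, and 0.791%, 0.579% and 0.0636% at 90 mg/L. The libraries that lie apart were the lowest of each dose here too. With Cluster-47276.167838 ran 26 unigenes, 5 of them among the 100. Together with it, they held 1.42% ± 0.398 in exposed libraries (SD, n = 6) and 3.65% ± 1.29 in controls (SD, n = 3). With Cluster-47276.168851 ran 2 unigenes, neither among the 100. These sets were picked by their likeness to unigenes chosen for a difference, so their own differences add no support.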

How the data were processed

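RNA of whole tissue was extracted with Trizol, poly-A selected, fragmented and sequenced as paired ends on an Illumina instrument, per the labels' protocols. The authors deposited FPKM with 2 decimals for each unigene and library. How the unigenes were put together, aligned and counted is, in the sources used here, not given. All 9 columns were matched to samples by title. Counts, lengths, sequences and names were not used here, so lists of marker and pathway genes could not be applied. With no counts, the sampling error of each value is unknown.

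Unigenes were ranked by the mean FPKM over 9 libraries, and the 100 highest taken. The 100 unigenes, the lists and the tests were chosen with earlier results of these data known. A share is a unigene's FPKM in percent of the library's summed FPKM. Tests used R 4.3.3 with limma 3.58.1, on log2(FPKM + 1), with a pseudocount of 1 FPKM, for the 147577 unigenes whose mean reached 1 FPKM. The fit had 1 mean per dose over all 9 libraries, 6 residual degrees of freedom, a trend on mean expression and a median moderated SD of 0.73. P-values were adjusted by Benjamini-Hochberg over all unigenes tested, and the procedure was tested on simulated data. A fold change on this scale understates the change of low unigenes.

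Unigenes are named by this rule: the 10 highest, those called, the 6 most positive and 6 most negative differences in share, the 3 largest gains and losses of rank, those listed at 0, the 5 steadiest and least steady, the 5 pairs most alike, and ranks next to the limit of the 100. Others named were chosen after their values were seen.

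Replicate numbers were checked by the correlation of deviations from the dose means. Same-numbered libraries of 60 mg/L and control gave 0.104, 0.327 and 0.113, those of 90 mg/L and control 0.106, -0.0586 and -0.173, and those of 90 and 60 mg/L 0.101, -0.0681 and -0.112. All same-numbered values thus passed the bound of 0.1 for 60 mg/L and control alone. Differently numbered libraries gave -0.219 to 0.134, -0.194 to 0.251 and -0.161 to 0.227 for the same dose pairs in order. The values of 0.327, 0.251 and 0.227 each joined libraries that lie apart, so pairing by number cannot be told from the place of those libraries. What a number marks is not in the labels. No library was a copy of another. Alternatives were another pseudocount, filter, scaling or spread, the replicate block, fits to the compared doses, left-out libraries and other ways to choose the 100. Data were handled with pandas 2.3.3 and NumPy 2.4.6 and figures drawn with matplotlib 3.10.9.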

Additional observations from a re-analysis of the deposited data

How the results depend on the processing

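None of the 100 unigenes was called in the limma fit with 1 mean per dose, nor with a pseudocount of 0.1, without a filter, with a minimum mean of 5 FPKM, any of the 3 other scalings, no trend, a robust spread, the compared doses alone, or with the replicate block, which gave 0 calls among the 100 in all 4 comparisons. Leaving out 1 library gave 0 to 1 calls for exposed, 60 mg/L and 90 against 60 mg/L. Without GBH 60 mg/L replicate 1, Cluster-47276.165845 was called in these 3, since 2 libraries near 0 then remained at 60 mg/L. That fit called 368, 477 and 285 of all 147577 unigenes tested in the same order. With those libraries near 0, Cluster-47276.165845 was among the 100 through its other groups, so this call is tied to how the 100 were chosen. A term for the libraries that lie apart gave 9, 8, 9 and 0 calls, and leaving those libraries out gave 1, 0, 0 and 0, for exposed, 60 and 90 mg/L against control and 90 against 60 mg/L. Over all unigenes tested, the counts of 438, 303, 364 and 65 calls ranged over 171 to 955, 0 to 1098, 9 to 994 and 0 to 533, with 171, 0, 9 and 0 under the replicate block.

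The summed share stayed lower in exposed libraries when libraries were left out, the 100 were chosen or counted in other ways or low unigenes left out of the sum, which are the alternatives run for it. The difference of -3.37 points ranged from -4.61 to -1.52 when 1 library was left out, and was -3.11 without the 3 that lie apart, -6.83 for the 1000 highest unigenes, -1.34 when the 100 were chosen by the exposed mean and -4.86 when chosen by the control mean. Without the 3 and the 12 unigenes of the most negative difference, chosen after seeing the data, it was -2.57 and -0.914. Checked were 33 unigenes, picked by the naming rule on grounds other than pairs, by the lack of overlap, or as the 12 most negative differences in share. For them, 651 of 693 log2 differences of exposed against control under 21 alternatives kept direction and side of the threshold, 11 passed it in the same direction and 31 reversed. Under median-ratio scaling reversed values were -0.233 for Cluster-47276.167040, -0.272 for Cluster-47276.166913, -0.239 for Cluster-47276.167722 and -0.308 for Cluster-47276.170246. Under quantile normalization they were -0.0755 for Cluster-47276.167040, 0.0618 for Cluster-47276.166984, 0.139 for Cluster-47276.167065, 0.0890 for Cluster-47276.166859, 0.183 for Cluster-47276.166306 and 0.139 for Cluster-47276.164837. Without the libraries that lie apart they were -0.0319 for Cluster-47276.166913, 0.146 for Cluster-47276.166984, 0.115 for Cluster-47276.166859 and -1.37 for Cluster-47276.159689, and with equal summed FPKM, an alternative added after seeing the data, 0.0326 for Cluster-47276.166984 and 0.000527 for Cluster-47276.166859. Leaving out 1 library gave ranges across 0 for 9 unigenes: -1.22 to 5.75 for Cluster-47276.159689, -0.294 to 0.225 for Cluster-47276.166306, -0.153 to 0.161 for Cluster-47276.166859, -0.163 to 0.00807 for Cluster-47276.166873, -0.110 to 0.144 for Cluster-47276.166984, -0.160 to 0.0330 for Cluster-47276.167065, -3.70 to 0.435 for Cluster-47276.167320, -3.06 to 0.527 for Cluster-47276.167329 and -0.0775 to 0.247 for Cluster-47276.167722. The cause was not tested. With no counts in the table, depth sets no stated limit on single values.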
